A study of Mus musculus with 31 samples.

Results

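The genes described here are 33 interferon-stimulated genes, followed over neural stem cells, medulloblastoma cultures and medulloblastoma tissue of the mouse. They were chosen by name, as genes known to be switched on by interferon, but with earlier results of these data known. The array measured 31 of the 33, among 18194 genes in all. Isg15, a ubiquitin-like protein attached to other proteins, had only a probe set shared by 2 gene symbols, Ifi44 had none listed, and neither was analysed here. Type I interferons are secreted proteins that bind a receptor of the Ifnar1 and Ifnar2 chains. The receptor's kinases then activate Stat2, which joins Irf9 in a complex that binds short DNA elements beside the responding genes. The products of these genes detect viral RNA, block steps of viral growth, tag or trim proteins, and signal to immune cells. In the brain the pathway is known best from microglia and infected neurons, but most cell types can respond.

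Total RNA of 27 biological samples, all of strain C57BL/6, was hybridised to an Affymetrix mouse array. Neural stem cells (NSC) had been cultured from the IV ventricle region, the cerebellar white matter and the subventricular zone (SVZ) of mice at postnatal day 7, with 3 cultures from each. The SVZ lies in the forebrain, and the other cultures are called hindbrain NSC here. Cancer stem cell (CSC) lines came from 8 medulloblastomas of mice that carry 1 mutant copy of Ptch, the receptor that restrains Hedgehog signalling, with wild-type p53 (tumours 74, 91, 92, 9, 49, 68, 77 and 83), and the matched tissue of the same 8 tumours was also profiled. Another 2 tumours, 27 and B, came from mice with 1 mutant copy of Ptch and 1 of p53. The CSC of each were profiled on 3 technical arrays that were averaged. The labels give the genotype of the mouse and not that of the cultured cells. All cultures grew as neurospheres, floating clusters of cells kept in EGF and FGF2, and were collected 3 to 5 days after plating. The mutations are germline and so are in every cell of these mice, a line stands for 1 tumour, and tissue is a mixture of cells. In tissue, fewer cells of a type and less RNA per cell cannot be told apart. The ages of the tumour-bearing mice were not given in the sources used here, and no culture had been given interferon as far as the labels say.

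Values are log2 levels, so a difference of 1 is a doubling, and levels are compared between samples and not between genes. Array medians lay between 3.17 and 3.32. As a guide to background, 19 genes of other organs had sample levels of 0.73 to 4.26, with a median of 1.72 and a 90th percentile of 3.33. Irf7, Dhx58, Ifit1, Oasl2, Mx1, Gbp2, Usp18, Parp14 and Xaf1 lay under 3.33 in every sample other than line 77 and tissue 83, so small differences of these 9 genes elsewhere are differences within the background range. Of the genotype genes, Ptch1 was 6.63 in the lines and 8.26 in hindbrain NSC, a difference of −1.63 ± 0.32 (SE; adjusted p = 0.00414). In the tissue of the same tumours its median was 8.27, with a difference of −0.00 from hindbrain NSC that was not called. The lines were also called lower than their own tissue (−1.63), so this value is no readout of the genotype they share. Trp53 had no probe set of its own and was not analysed. Unless stated, adjusted p-values come from limma fits across all 18194 genes with Benjamini-Hochberg adjustment, two-sided, and a gene is called at an adjusted p under 0.05.

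The complex that holds Stat2 and Irf9 binds an element built of repeated GAAA blocks. RefSeq promoters of build GRCm38.p6, from 250 bases before to 50 bases after the annotated start, were at hand for 24 of the 33 genes. A pair of GAAA blocks with any 2 bases between them, on either strand, was present in 13 of these 24 (54.2%), against 1079 of 27025 genes (3.99%). The second motif searched, TTCNNNGAA, which is like the element that answers to interferon gamma, was present in 7 of 24 (29.2%) against 2582 genes (9.55%). The promoters of 5 genes follow as examples, with each such GAAA pair in capitals (its complement where it lies on the other strand). Ifit1 (chr19:34640639-34640938, plus strand) and Ifit3 (chr19:34583279-34583578, plus strand) hold 2 matches each. Rsad2 (chr12:26456403-26456702, minus strand) holds a match upstream of its start, and Ifitm3 (chr7:141010695-141010994, minus strand) holds 2 matches just after the start. Trim25 (chr11:88999153-88999452, plus strand), which was not raised in line 77, holds none in this window. These 5 do not stand for all: Oasl2 holds no match, yet line 77 lay 5.78 above the median of the other lines. Oas1a holds 2 matches, and line 77 lay 0.07 above that median.
Ifit1: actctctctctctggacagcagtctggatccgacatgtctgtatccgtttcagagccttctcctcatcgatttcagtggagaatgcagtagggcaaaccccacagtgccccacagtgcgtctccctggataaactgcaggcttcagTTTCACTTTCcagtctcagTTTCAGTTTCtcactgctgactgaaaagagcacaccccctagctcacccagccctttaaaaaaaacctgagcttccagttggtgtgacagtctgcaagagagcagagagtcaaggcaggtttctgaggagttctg
Ifit3: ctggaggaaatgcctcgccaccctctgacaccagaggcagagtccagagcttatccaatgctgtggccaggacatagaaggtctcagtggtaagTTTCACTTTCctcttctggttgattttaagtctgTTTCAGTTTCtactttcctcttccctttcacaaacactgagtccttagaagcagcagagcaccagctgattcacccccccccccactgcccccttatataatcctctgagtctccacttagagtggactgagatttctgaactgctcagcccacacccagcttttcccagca
Rsad2: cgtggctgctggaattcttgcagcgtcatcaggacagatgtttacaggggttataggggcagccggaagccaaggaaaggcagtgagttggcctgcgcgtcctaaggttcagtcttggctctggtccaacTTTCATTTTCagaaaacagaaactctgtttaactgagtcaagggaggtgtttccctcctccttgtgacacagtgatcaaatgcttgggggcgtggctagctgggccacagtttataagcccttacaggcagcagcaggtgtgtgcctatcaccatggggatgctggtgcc
Ifitm3: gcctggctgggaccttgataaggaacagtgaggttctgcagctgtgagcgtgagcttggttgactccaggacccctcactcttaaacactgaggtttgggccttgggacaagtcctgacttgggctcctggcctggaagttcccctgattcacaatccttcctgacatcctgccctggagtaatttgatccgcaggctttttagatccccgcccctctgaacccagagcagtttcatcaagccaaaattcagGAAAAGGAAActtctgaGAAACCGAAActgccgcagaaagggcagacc
Trim25: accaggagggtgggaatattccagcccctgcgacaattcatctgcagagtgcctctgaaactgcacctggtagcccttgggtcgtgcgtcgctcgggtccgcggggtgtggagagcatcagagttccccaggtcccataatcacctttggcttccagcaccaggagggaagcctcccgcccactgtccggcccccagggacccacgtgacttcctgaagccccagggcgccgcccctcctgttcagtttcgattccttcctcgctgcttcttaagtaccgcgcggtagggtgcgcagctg

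Across the 27 samples the mean level of the interferon response genes was even with 2 exceptions, a culture and a tissue of different tumours. Single genes were less even outside these exceptions. Ifitm3 ran from 1.46 in line 83 to 8.97 in cerebellar culture 1, and Trim25 from 1.33 in line 91 to 5.24 in that culture. The mean level over the 31 genes was 3.27 to 3.59 in the 9 NSC cultures and 3.33 to 3.72 in 7 of the 8 p53 wild-type lines. In line 77 it was 6.20. The p53 heterozygous cultures 27 and B stood at 3.43 and 3.34. Of the 8 tissues, 7 lay between 3.34 and 3.68, and tissue 83 stood at 4.59. Line 77 and tissue 83 come from different tumours: the tissue of tumour 77 was at 3.48 and the line of tumour 83 at 3.45, inside the range of the other samples. The digits that end the sample names form a mark shared by several samples. No line, heterozygous culture or tissue shares a mark with an NSC culture. In every comparison with NSC, mark and kind of sample therefore cannot be told apart. Line 77 shared its mark with lines 49, 68 and 83, whose means were 3.38, 3.43 and 3.45, and tissue 83 shared its mark with tissue 68, at 3.43.

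**Figure D1:**
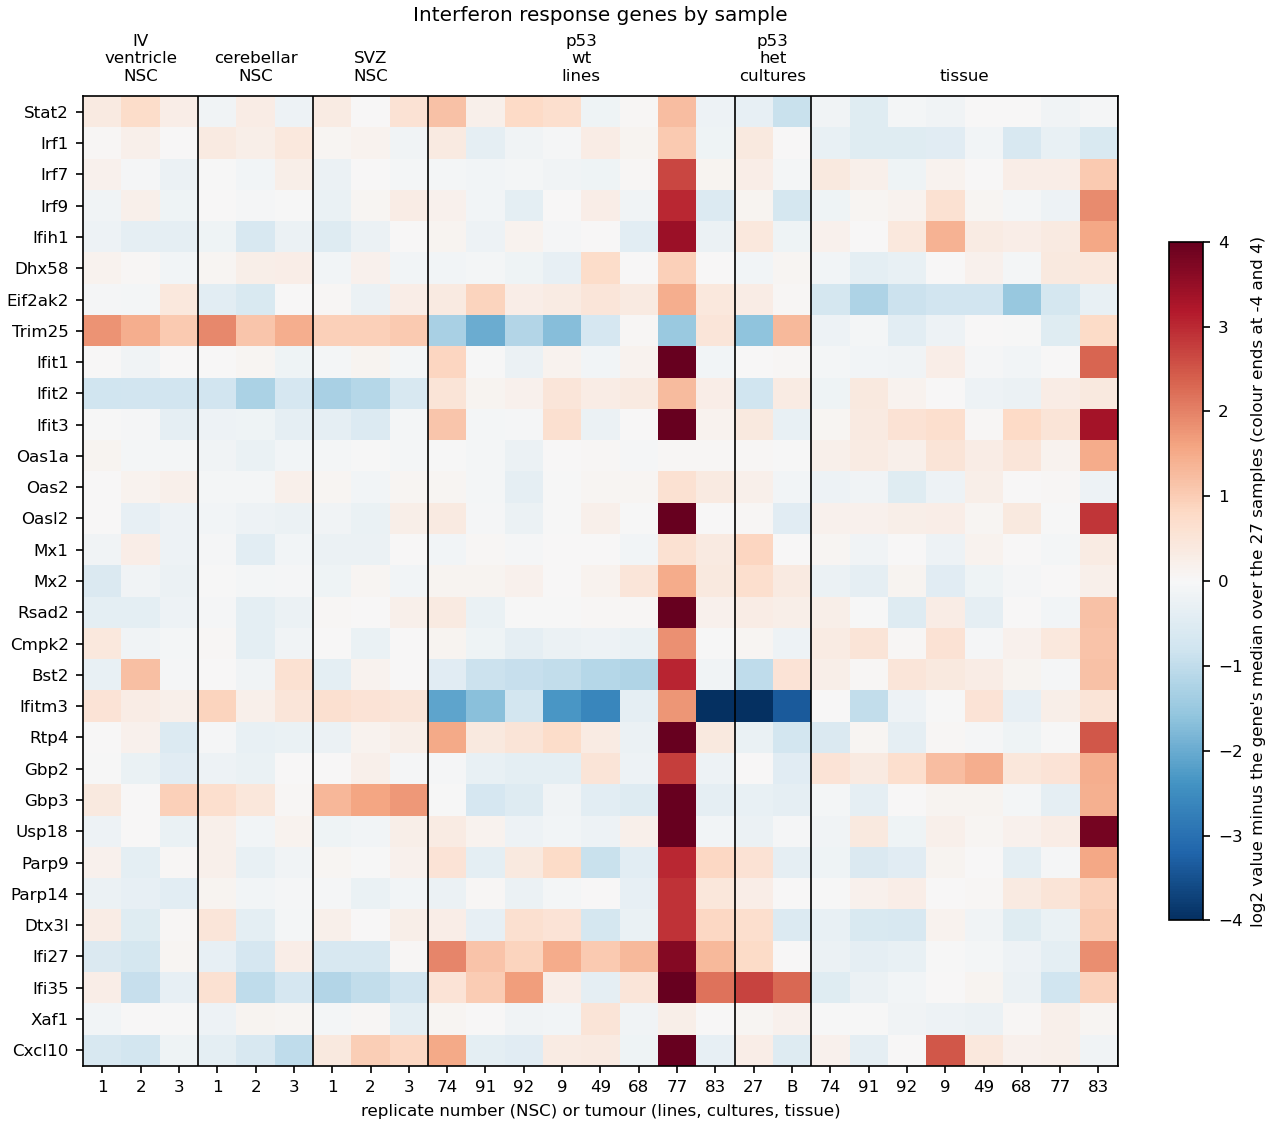
Level of each of the 31 measured interferon response genes in each of the 27 samples, drawn as the log2 difference from that gene's median over the 27 samples (colours end at −4 and 4). The genes run down the plot by role and the samples run across by group. The column of line 77, with a mean level of 6.20, stands out over most genes and the column of tissue 83, at 4.59, over many of them.

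Line 77 had the highest value of the 8 lines for 29 of the 31 genes, whereas over all genes it was highest for 11.7%. For 20 of the 31 it lay at least 1 log2 unit above the next line, which it did for 76 of 18194 genes (0.418%). The median excess of line 77 over the median of the other 7 lines was 2.74 for the 31 genes and 0.01 for all genes. Line 77 was singled out with its values known, so these counts and values are a description and no p-value is given. Each other line was highest for at most 1 of the 31 genes. Of the genes with several probe sets, 13 in number, the 18 further probe sets all had line 77 on the same side of the other lines as the probe set used.

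The transcription factors of the response were all highest in line 77, with a median excess of 1.93. Irf9, the DNA-binding part of the Stat complex, was 6.99 in line 77 against 3.43, 3.89 and 4.27 as the lowest, median and highest of the other 7 lines. Irf7, which amplifies the production of interferon, was 4.48 against 1.65, 1.74 and 1.94. These lines did not overlap with line 77 for either gene. Irf1, a factor that also answers to interferon gamma, was 6.56 against 5.15, 5.44 and 5.85. Stat2, the partner of Irf9, was 4.73 against 3.31, 3.70 and 4.68, so that line 74 at 4.68 lay next to it.

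The sensors of viral RNA and their regulators were uneven. Ifih1, which encodes the sensor MDA5, was 6.08 in line 77 and 2.23, 2.62 and 2.81 as the lowest, median and highest of the others, an 11-fold excess over their median. Eif2ak2, the kinase PKR that halts translation on double-stranded RNA, was 5.73 against 4.53, 4.63 and 5.17. Dhx58, which encodes the regulator LGP2, was 3.08 against 1.79, 2.06 and 2.87, all within the background range. Trim25, a ubiquitin ligase that acts on the sensor RIG-I, was the exception, with 1.83 in line 77 against 1.33, 2.14 and 3.80 in the others.

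The antiviral effectors held the largest group, and all 15 were highest in line 77, with a median excess of 3.86. Oasl2, of the oligoadenylate synthetase family, was 7.30 in line 77 against 1.31, 1.52 and 1.90 as the lowest, median and highest of the other lines (54.9-fold over the median). Ifit3, a partner of the RNA-binding Ifit proteins, was 8.21 against 2.26, 2.49 and 3.60 (52.8-fold). Rtp4, a transmembrane protein with antiviral activity, was 9.47 against 3.24, 3.84 and 4.96 (49.4-fold). Most of the values in the other lines lay within 0.73 to 4.26, the range of the genes of other organs, so these folds depend on where background lies. Ifit1, which binds viral RNA ends, was 7.09 against 1.48, 1.67 and 2.56 (42.9-fold). Rsad2, the enzyme viperin, was 8.54 against 3.59, 3.89 and 4.21 (25.1-fold), and Cmpk2, the kinase encoded beside it, was 5.38 against 3.20, 3.35 and 3.66. Bst2, the tetherin that holds virus particles at the cell surface, was 6.99 against 2.76, 3.02 and 3.80. For Oasl2, Ifit3, Rtp4, Ifit1, Rsad2 and Bst2, and for Gbp3 described next, no other line came within 3 log2 units of line 77.

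Gbp3, an interferon-induced GTPase of the guanylate-binding family, was 7.08 in line 77 against 2.24, 2.49 and 2.90 in the others (24-fold), and its relative Gbp2 was 4.48 against 1.33, 1.53 and 2.24. Ifitm3, a membrane protein that blocks virus entry, was 9.84 in line 77, but it varied most among the other lines, from 1.46 in line 83 over a median of 5.98 to 7.72. Mx2, a gene of the Mx GTPase family, was 4.44 against 3.00, 3.12 and 3.46. The remaining effectors had an excess of under 1 log2 unit over the median of the other lines. Ifit2 was 7.37 against 6.22, 6.41 and 6.63 (1.94-fold), apart from all of them. Oas2 was 3.70 against 2.73, 3.15 and 3.43, and Mx1, whose protein is defective in this strain, was 2.26 against 1.56, 1.66 and 2.02. Oas1a, a synthetase of the signal that activates RNase L, was 4.40 against a highest value of 4.39 in the others, so that line 77 could not be told from line 83.

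All 4 measured enzymes of the Isg15 and ADP-ribosylation group were highest in line 77, with a median excess of 2.80. Usp18, the protease that removes Isg15 and restrains the interferon receptor, had the largest excess of the 31 genes: it was 7.73 in line 77 and 1.47, 1.58 and 2.01 as the lowest, median and highest of the other lines (71.1-fold). Parp9 and Dtx3l, which work as partners, were 6.82 against 2.93, 4.19 and 4.63 and 7.68 against 4.08, 5.05 and 5.60. Parp14, another ADP-ribosylating enzyme, was 5.39 against 2.18, 2.43 and 2.96. Of the other genes, Cxcl10, a chemokine that attracts T cells, was 8.37 against 3.33, 3.61 and 5.29 (27.1-fold). Ifi27 was 10.27 against 7.47, 7.88 and 8.54, and Ifi35 was 7.88 against 3.39, 4.31 and 5.91. Xaf1, linked to cell death, was the second exception at 2.03 against 1.65, 1.80 and 2.30. Its probe sets disagreed in size, since its other probe set, dimmer on average, lay 4.38 above the median of the other lines where the one used lay 0.23 above.

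Among the 22 genes with both a promoter and a value, the 12 with a GAAA pair had a median excess in line 77 of 3.92 (range 0.07 to 5.72), and the 10 without had 2.33 (range −0.31 to 5.78). For TTCNNNGAA the order was the other way, with 1.12 (range 0.07 to 3.97) for the 7 genes with it and 3.10 (range −0.31 to 5.78) for the 15 without. Within each split the ranges overlapped over most of their length. A match is a description of these letters and not a bound site.

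**Figure D2:**
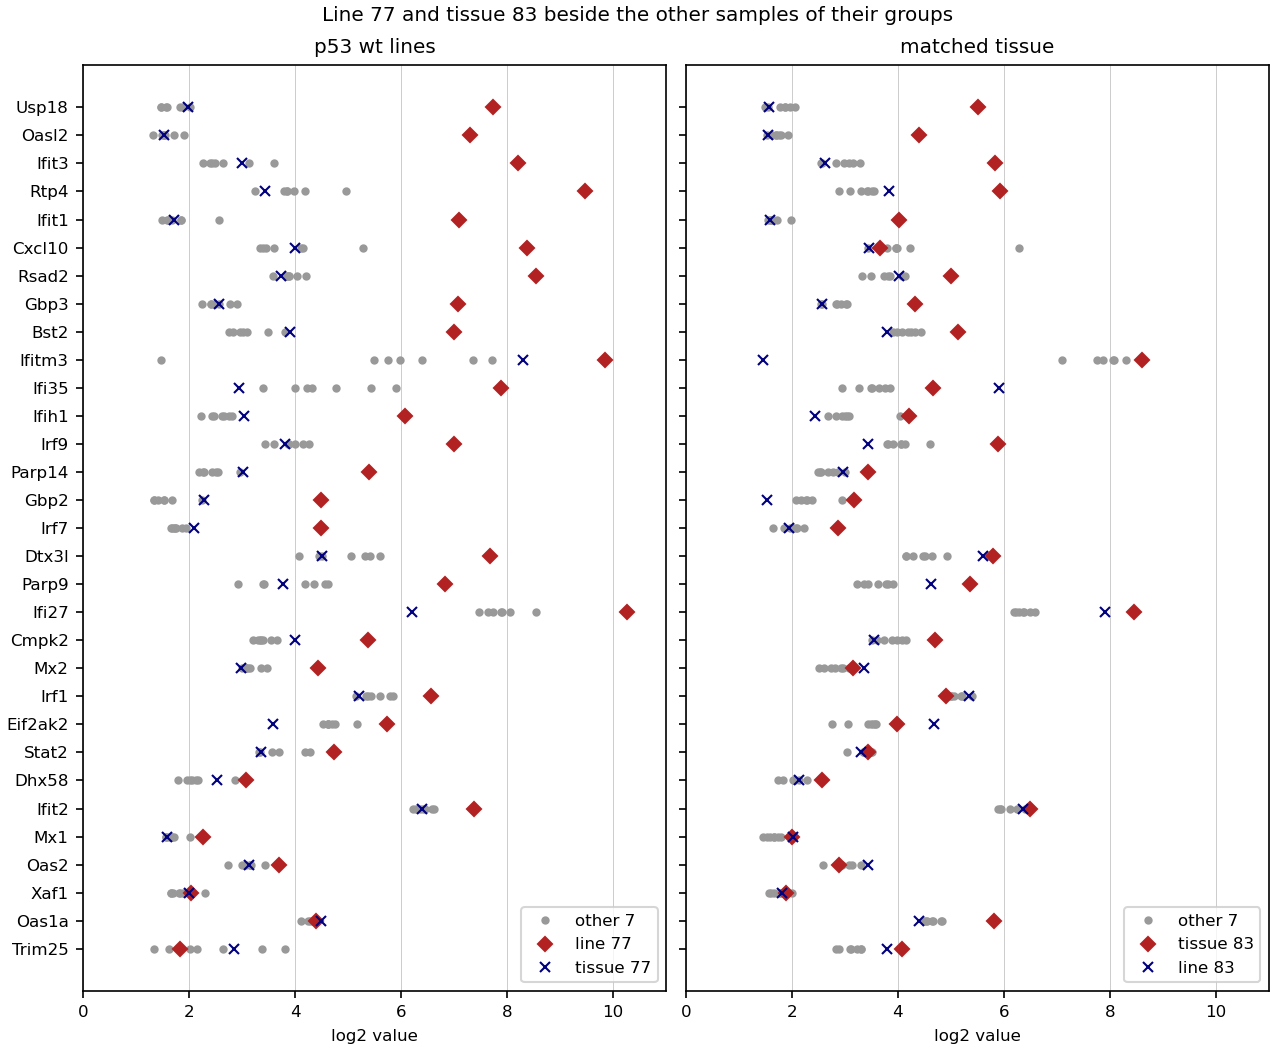
Log2 level of each measured interferon response gene in the 8 p53 wild-type lines (left) and the 8 matched tissues (right), with line 77 and tissue 83 as diamonds, the other 7 samples of each kind as small points, and the tissue of tumour 77 and the line of tumour 83 as crosses. Line 77 lies to the right of the other lines for 29 of 31 genes, and tissue 83 to the right of the other tissues for 24 of 31.

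Other genes of the pathway show how far the pattern of line 77 reached. Of a further 79 interferon-stimulated genes, 67 were measured, 43 were highest in line 77 and 23 lay at least 1 log2 unit above the next line, with a median excess of 1.00. Of the 30 genes with the largest excess over the next line among all 18194, 13 were of the 31 genes and 14 were of this further list, and the other 3, chosen after their values were seen, were Gm4951, Trim30d and Slitrk4. The genes that make or receive the signal did not follow. Of 10 measured interferon genes, 3 were highest in line 77 and none lay at least 1 unit above the next line, with a median excess of 0.01. Interferon beta, Ifnb1, was 1.86 in line 77 and 1.80 to 2.07 in the others. Of 16 measured receptor chains, kinases and inhibitors, 3 were highest in line 77, with a median excess of 0.04. The receptor chains Ifnar1 and Ifnar2 were 6.16 against 6.25 to 6.64 and 5.60 against 5.25 to 6.12. Among 27 measured sensors of nucleic acids and their adaptors, 10 were highest in line 77, and 1, Ddx58, which encodes RIG-I and was named after its value was seen, lay at least 1 unit above the next line, at 6.93 against 3.57 to 4.73.

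Markers of cell types that could enter a culture were at the level of the other lines. The mean level of 17 microglia and macrophage markers was 2.14 in line 77, 1.88 to 2.25 in the other lines and 5.26 to 6.35 in tissue. Of these, C1qa was 1.82, Ctss 1.56 and Csf1r 3.22 in line 77, and Cd68 was the marker that stood above, at 3.71 against 1.96 to 2.65. The mean of 16 lymphocyte markers was 2.20 against 2.15 to 2.31, and that of 9 endothelial markers was 2.13 against 1.91 to 2.28. The mean of 8 markers of neural stem cells and radial glia was 8.89 in line 77 and 8.14 to 9.37 in the others, so the culture carried the markers of its label. The mean of 8 markers of the granule neuron lineage was 7.77 to 8.47 in tissue, with a median of 3.68 in the 7 other lines and 3.63 in line 77.

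Tissue 83 had the highest value of the 8 tissues for 24 of the 31 genes, whereas over all genes it was highest for 13.4%. For 9 of the 31 it lay at least 1 log2 unit above the next tissue, which it did for 47 of 18194 genes (0.258%). Its median excess over the median of the other 7 tissues was 0.93 for the 31 genes and 0.00 for all genes. As with line 77, these values are a description. Usp18 again had the largest excess, with 5.52 in tissue 83 against 2.06 in the next tissue. Ifit3 was 5.83 against a next value of 3.29, Oasl2 was 4.40 against 1.92, and Rtp4 was 5.93 against 3.54. Ifit1 was 4.02 against 1.98, Ifi27 was 8.46 against 6.58 and Parp9 was 5.37 against 3.91. Gbp3 at 4.33 against 3.04 and Irf9 at 5.88 against 4.61 complete the 9.

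Several genes that were high in line 77 were not so in tissue 83. Cxcl10 was 3.66 in tissue 83, below the median of 3.97 of the other tissues, and its highest tissue value was 6.28 in tissue 9. Ifitm3 was 8.61 in tissue 83 against a highest value of 8.63 in the others, and Irf1 was 4.90 against a median of 5.06. Oas1a went the other way, with 5.81 in tissue 83 against at most 4.84 in the other tissues. Across the 31 genes the excess of tissue 83 and that of line 77 correlated at r = 0.70, a description over genes read with the same probe sets in samples of different tumours. Of the 30 genes with the largest excess over the next tissue, 9 were of the 31, 1 was of the further list (Ifi27l2a, named after its value was seen, at 5.67 against 1.78 to 2.78) and 20 were on neither list. Tissue 83 therefore stood apart in other genes too, among them, named after their values were seen, Gjb6, a gap junction protein of astrocytes, at 5.89 against a next value of 3.72, and Mog, a protein of myelin, at 2.85 against 1.49, both within or near the background range in the other tissues. The mean of the microglia markers was 6.21 in tissue 83 and 5.26 to 6.35 in the others, that of endothelial markers was 3.27 against 2.93 to 3.52, and that of mural and fibroblast markers was 3.58 against 3.83 to 4.76. The part of the other genes of tissue 83 in these values was not tested.

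**Figure D3:**
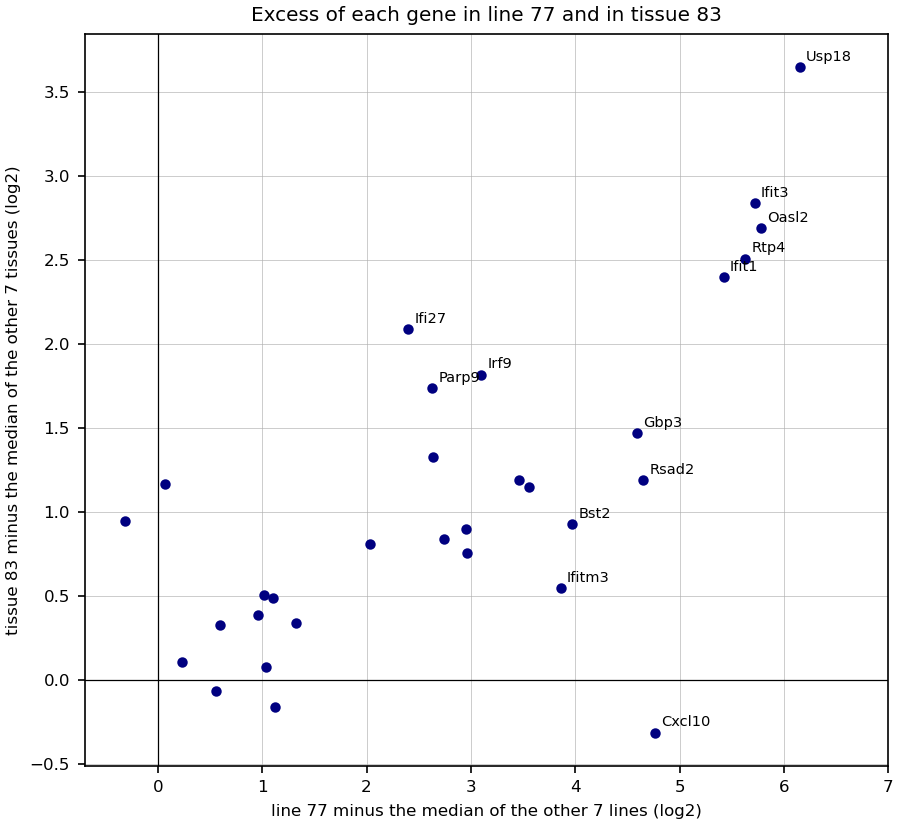
Excess of tissue 83 over the median of the other 7 tissues (vertical axis, log2) against the excess of line 77 over the median of the other 7 lines (horizontal axis, log2), with a point for each of the 31 measured interferon response genes. Usp18, Ifit3, Oasl2, Rtp4 and Ifit1 are high on both axes, and Cxcl10 is high for line 77 alone, with r = 0.70 over the 31 points.

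The comparison of the 8 p53 wild-type lines with hindbrain NSC asks how the tumour cultures differ from stem cells of the region in which these tumours arise. Of the 31 genes, 3 were higher in the lines and 1 was lower, against 3.51% of all genes higher and 6.06% lower. Ifi27, a small protein of membranes, was 8.19 ± 0.90 (SD, n = 8) in the lines and 6.26 ± 0.41 (n = 6) in NSC. The lines ran from 7.47 over a median of 7.89 to 10.27, and NSC from 5.88 over 6.14 to 6.86. The groups did not overlap, and the difference was 1.92 ± 0.35 (SE; adjusted p = 0.00276). Ifit2, a relative of Ifit1 and Ifit3, ran from 6.22 over 6.44 to 7.37 in the lines and from 4.83 over 5.34 to 5.45 in NSC. These groups were also apart, with a difference of 1.27 ± 0.19 (adjusted p = 7.19e-04). Eif2ak2 ran from 4.53 over 4.66 to 5.73 in the lines and from 3.66 over 4.20 to 4.69 in NSC, with some overlap, and was higher by 0.69 ± 0.17 (adjusted p = 0.0182). Its call was lost without cerebellar culture 2 (0.62, adjusted p = 0.0551) or IV ventricle culture 2 (0.65, adjusted p = 0.0547).

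Trim25 was the gene called lower. It ran from 1.33 over a median of 2.08 to 3.80 in the lines and from 4.36 over 4.75 to 5.24 in hindbrain NSC. No line reached the lowest NSC culture, and the difference was −2.43 ± 0.42 (adjusted p = 0.00186). Its second probe set gave −2.62, and its remaining, dimmest probe set, within the background range, gave −0.09.

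The other 27 genes were not called, though 26 of the 31 differences were above 0, with a median of 0.48 against 0.00 over all genes. For many of them the mean moved with line 77. Usp18 was 2.44 ± 2.15 in the 8 lines and 1.64 ± 0.19 in NSC, and without line 77 the lines were 1.68 ± 0.22 (n = 7), a difference of 0.04. Without line 77 the differences of Ifit1, Irf7 and Irf9 were 0.12, −0.05 and −0.08. So the higher means of these genes in the lines rested on a single culture.

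Leaving out line 77 also narrowed the spread, and 9 genes were then called, 5 higher and 4 lower, against 3.00% and 5.23% of all genes. Ifi27 stayed higher by 1.63 ± 0.21 (adjusted p = 3.36e-04), Ifit2 by 1.15 ± 0.16 (adjusted p = 6.33e-04) and Eif2ak2 by 0.57 ± 0.13 (adjusted p = 0.0131). Mx2 was higher by 0.39 ± 0.09 (adjusted p = 0.0188) and Rsad2 by 0.32 ± 0.09 (adjusted p = 0.0373). The lines other than line 77 averaged 3.90 for Rsad2 and 3.18 for Mx2, where SVZ NSC averaged 3.94 and 2.91. Trim25 stayed lower, at −2.36 ± 0.44 (adjusted p = 0.00427). A further 3 genes were called lower, and line 77 had stood highest in them as in 29 of the 31 genes. Ifitm3 ran from 1.46 over 5.98 to 7.72 in the 7 lines and from 8.27 over 8.47 to 8.97 in hindbrain NSC, with no overlap and a difference of −2.78 ± 0.74 (adjusted p = 0.0299). Bst2 was also lower, at −1.04 ± 0.28 (adjusted p = 0.0297), and so was Gbp3, at −0.80 ± 0.15 (adjusted p = 0.00421). With line 77 among the lines these 3 differences were −2.26, −0.55 and −0.23, and none was called. With the 4 lines of the first name mark alone 8 genes were called, and with the 4 of the second, which hold line 77, 5 were.

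**Figure D4:**
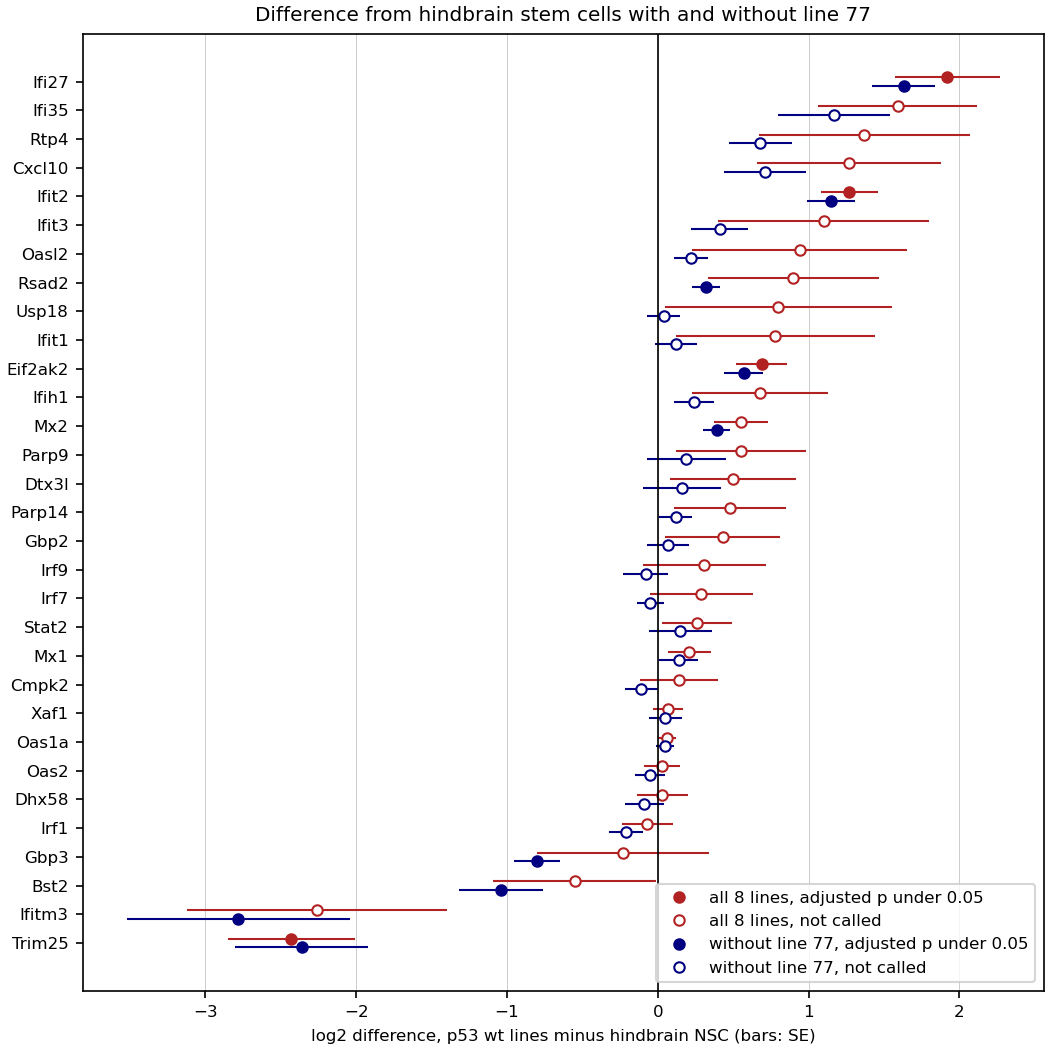
Difference between the p53 wild-type lines and hindbrain NSC (log2, bars for the SE) for each measured interferon response gene, with all 8 lines and without line 77, and filled points for an adjusted p under 0.05. Without line 77 the bars of most genes narrow, Ifitm3, Bst2 and Gbp3 join Trim25 as called below 0, and Ifi27, Ifit2 and Eif2ak2 stay called above 0.

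Calls among other genes of the pathway stand beside 3.51% of all genes called higher and 6.06% lower. None of the 10 interferons and none of the 16 receptors and kinases was called, which says little for lists this short at those shares. The sensors and adaptors had 7.41% higher and 7.41% lower, and the further interferon-stimulated genes 4.48% and 0.00%, so these counts are not read as a result. Of the 27 sensors and adaptors, the receptors Tlr4 (1.84) and Tlr3 (1.79), which detect bacterial lipid and double-stranded RNA, were higher, and Rnaseh2c (−0.42) and Samhd1 (−0.40), enzymes that act on nucleic acids and nucleotides, were lower. Of the 67 further interferon-stimulated genes, B2m, the light chain of MHC class I (1.12), Samd9l (2.47) and Ifi27l2b (0.30) were higher and none was lower.

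The p53 heterozygous cultures, from 2 tumours, were set against hindbrain NSC and against the p53 wild-type lines. Hindbrain NSC are not tumour cells and share no mark with them, so that comparison cannot single out the second mutation. Against hindbrain NSC, 1 of the 31 genes was higher and 1 lower, while 13.8% of all genes were higher and 13.0% lower. Ifitm3 was 2.43 in culture 27 and 4.73 in culture B, both below the lowest hindbrain NSC culture at 8.27. Its technical arrays read 2.53, 2.86 and 1.89 for tumour 27 and 4.84, 4.71 and 4.62 for tumour B, so the gap between the tumours was wider than the gap between arrays. The difference from NSC was −4.94 ± 1.30 (SE; adjusted p = 0.0084). Ifi35, a protein that binds other interferon-induced proteins, was 6.44 in culture 27 and 6.06 in culture B, above NSC, which ran from 2.72 over 3.25 to 4.35, and the difference was 2.85 ± 0.80 (adjusted p = 0.013). Without tumour 27 neither was called (Ifitm3 −3.79, adjusted p = 0.146, and Ifi35 2.65, adjusted p = 0.104), and without tumour B Ifi35 was not (3.04, adjusted p = 0.0593). The number of genes called was 1 without tumour 27 and 3 without tumour B. Each of these fits leaves a single heterozygous culture, which is assumed to vary like the other groups, so a call lost there says little about stability. Trim25 split the pair, with 1.70 in culture 27 and 4.62 in culture B, the latter inside the NSC range.

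Against the 8 p53 wild-type lines, none of the 31 genes was higher in the heterozygous cultures and 1 was lower, while 14.5% of all genes were higher and 11.8% lower. Stat2 was 3.16 in culture 27 and 2.61 in culture B, and ran from 3.31 over 3.94 to 4.73 in the lines. The groups did not overlap, with a difference of −1.09 ± 0.33 (adjusted p = 0.0211), and without tumour B, with a single heterozygous culture left, it was not called (−0.82, adjusted p = 0.246). Leaving out tumour 27, tumour B or line 83 gave 2 calls in place of 1. Without line 77, 1 gene was called higher and 3 lower, against 14.0% and 11.4% of all genes. These were Ifi35 (1.67 ± 0.53, adjusted p = 0.0267), Rtp4 (−1.0 ± 0.30, adjusted p = 0.0215), Stat2 (−0.98 ± 0.31, adjusted p = 0.026) and Ifi27 (−0.91 ± 0.30, adjusted p = 0.0346). Within the lines of the first mark 5 genes were called and within those of the second none, and the name mark of the heterozygous arrays cannot be told apart from genotype. Upstream of these genes, 5 of the 16 receptors and kinases were higher and 2 lower in the heterozygous cultures, among them the receptor chains Il10rb (1.04) and Ifnar2 (0.65), the phosphatase Ptpn6 (0.66) and the kinase Jak2 (0.66) as higher, and the kinase Tyk2 (−0.40) and the transcription factor Stat3 (−1.05) as lower. Beside this, 6 of 8 neural stem cell markers were lower and 3 of 9 mural and fibroblast markers were higher in these cultures, and their part in the result was not tested.

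The lines and their own tissue were compared pairwise by tumour. Of the 31 genes, 6 were higher in the lines and 2 lower, against 26.6% and 23.1% of all genes. Eif2ak2 ran from 4.53 over 4.66 to 5.73 in the lines and from 2.76 over 3.52 to 3.99 in tissue. The groups were apart and the paired difference was 1.42 ± 0.17 (adjusted p = 5.99e-05). Ifi27 was higher by 1.56 ± 0.38 (adjusted p = 0.00648), Ifi35 by 1.35 ± 0.48 (adjusted p = 0.0394) and Mx2 by 0.49 ± 0.14 (adjusted p = 0.0123). The transcription factors Irf1 (0.56 ± 0.12, adjusted p = 0.00299) and Stat2 (0.60 ± 0.19, adjusted p = 0.0225) followed in the same direction. Ifi35 and Stat2 had the least firm calls: Ifi35 was not called without tumour 74, 91, 92, 68 or 83 (adjusted p up to 0.0808), and Stat2 was not called without tumour 74, 92, 9 or 77 (up to 0.0572). Lower in the lines were Trim25, with a difference of −0.89 ± 0.19 (adjusted p = 0.00329), and Oas1a, with −0.48 ± 0.13 (adjusted p = 0.0108). Within the 4 tumours whose lines and tissues share a mark 15 genes were called, and within the other 4, which include tumours 77 and 83, 2 were.

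Without tumour 77 the split turned towards tissue, with 5 genes higher and 10 lower in the lines, against 25.3% and 22.1% of all genes. Bst2 was then lower, with a difference of −1.21 ± 0.10 (adjusted p = 1.78e-05), as were Gbp2 with −1.02 ± 0.15 (adjusted p = 4.93e-04) and Ifitm3 with −2.28 ± 0.75 (adjusted p = 0.0333). Cmpk2 (−0.56), Ifih1 (−0.69), Gbp3 (−0.54), Irf7 (−0.33) and Parp14 (−0.31) joined Trim25 and Oas1a as lower, and Stat2 was no longer called (0.49, adjusted p = 0.0553). Tissue held microglia markers at a mean of 5.26 to 6.35 where the lines held 1.88 to 2.25, and their part in these values was not tested.

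Tissue against hindbrain NSC gave the most calls, with 8 genes higher and 4 lower in tissue, in a comparison in which 23.7% of all genes were higher and 28.7% lower. Ifit2 ran from 5.89 over 6.18 to 6.50 in tissue, above the highest hindbrain NSC culture at 5.45, and was higher by 0.92 ± 0.14 (adjusted p = 1.69e-05). Ifih1 was higher by 0.90 ± 0.22 (adjusted p = 0.00203), Oas1a by 0.54 ± 0.16 (adjusted p = 0.00807), Cmpk2 by 0.45 ± 0.16 (adjusted p = 0.0234) and Parp14 by 0.45 ± 0.12 (adjusted p = 0.00494). Gbp2 was higher by 1.05 ± 0.18 (adjusted p = 7.04e-05), with both means, 2.56 and 1.51, in the background range. Ifit3 was higher by 0.99 ± 0.38 (adjusted p = 0.0372), and by 0.63 ± 0.13 (adjusted p = 4.62e-04) without tissue 83. Its call was lost without any 1 of the 6 hindbrain NSC cultures or tissue 68, with adjusted p up to 0.0738. Cmpk2 lost its call without cerebellar culture 2 or IV ventricle culture 2 or 3 (adjusted p up to 0.0662).

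Cxcl10 was higher in tissue by 0.97 ± 0.33 (adjusted p = 0.0206), with 3.44, 3.96 and 6.28 as the lowest, median and highest tissue. Its direction hung on the reference, since against SVZ cultures it was −0.36 (adjusted p = 0.535), and without cerebellar culture 3 it was not called (0.89, adjusted p = 0.0519). Lower in tissue were Trim25 (−1.54 ± 0.18, adjusted p = 1.01e-06), Irf1 (−0.63 ± 0.08, adjusted p = 6.32e-06), Eif2ak2 (−0.72 ± 0.16, adjusted p = 0.00125) and Stat2 (−0.35 ± 0.11, adjusted p = 0.0151). Stat2 was not called without cerebellar culture 2 or IV ventricle culture 2 (−0.27 in each). Without tissue 83, 9 genes were higher and 6 lower, against 23.3% and 28.2% of all genes, with Oasl2 (0.36) joining the first and Ifitm3 (−0.54) and Gbp3 (−0.51) the second. Of the 67 further interferon-stimulated genes, 28 were higher and 8 lower, among them Ly6e (4.13), Lgals9 (2.97) and H2-D1 (2.26) as higher and Tdrd7 (−2.75) and Mlkl (−1.04) as lower. In the same comparison 16 of 17 microglia markers were higher, with a median difference of 4.22 over the list, and all 9 endothelial markers were higher. Their part in the calls was not tested.

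**Figure D5:**
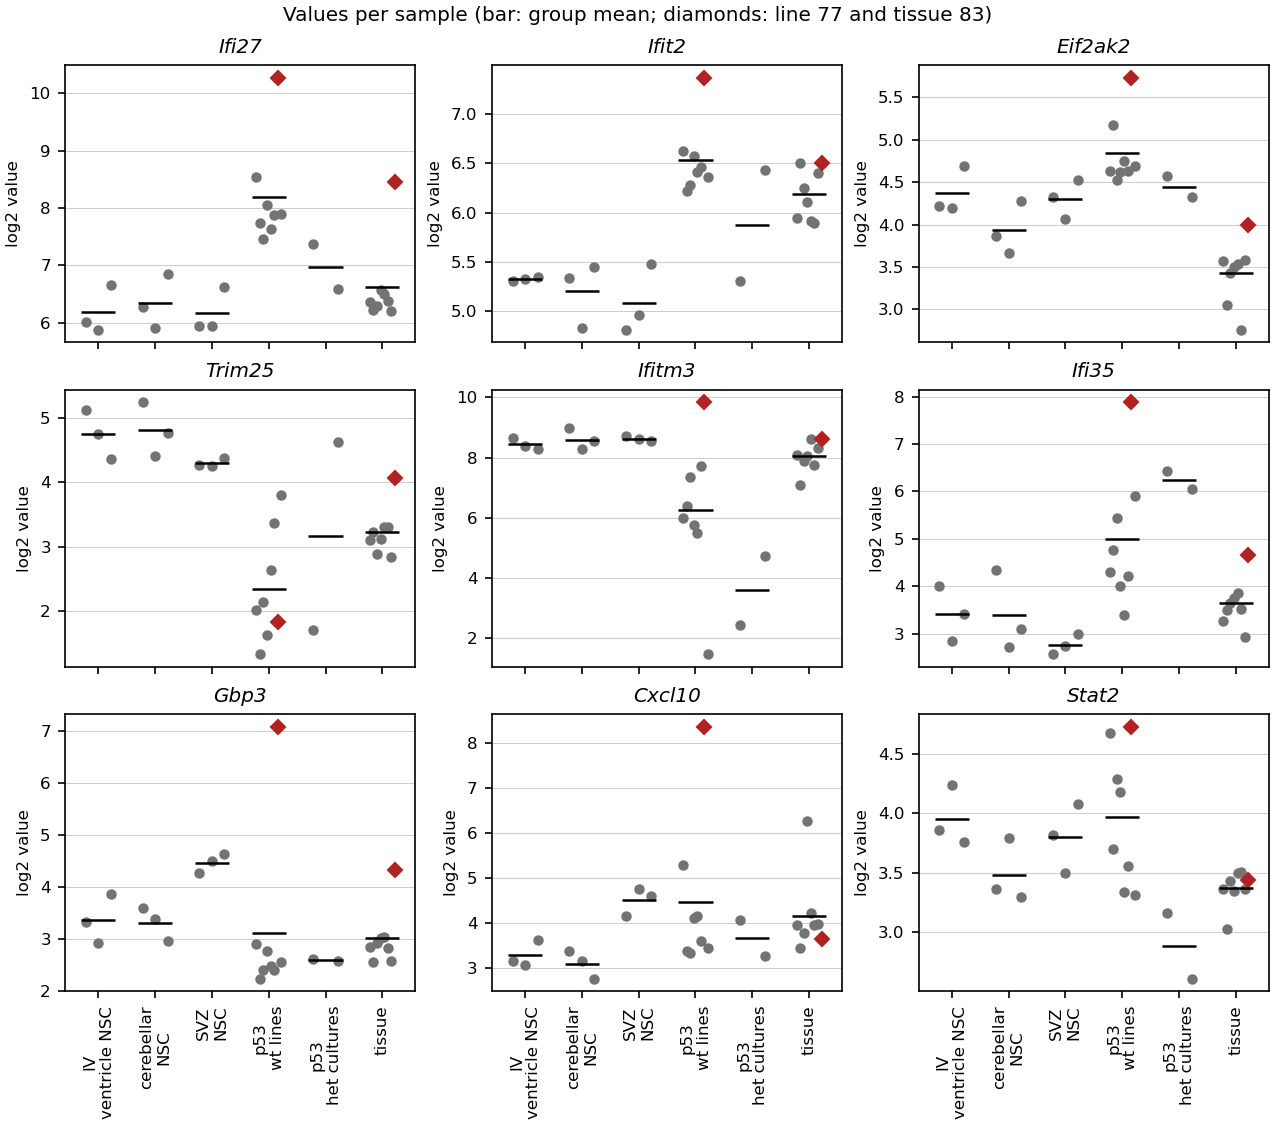
Log2 levels of 9 interferon response genes, with a point per sample, by group, a bar at each group mean, and diamonds for line 77 and tissue 83. Ifi27 and Ifit2 lie above the NSC cultures in all 8 p53 wild-type lines, and Trim25 lies below them in all 8.

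Among NSC of different regions, Cxcl10 was the response gene that differed by the test. Between IV ventricle and cerebellar cultures none of the 31 genes was called by limma, nor was any of the 18194 (0.00%), while 3 of the 31 and 559 of all genes had an unadjusted p under 0.05. Cxcl10 in the IV ventricle cultures stood at 3.07, 3.16 and 3.62. Its cerebellar values were 2.77, 3.15 and 3.39, and those of SVZ were 4.17, 4.61 and 4.77. The SVZ values lay above all 6 hindbrain values. Cxcl10 was lower in the IV ventricle cultures than in SVZ, with a difference of −1.23 ± 0.21 (adjusted p = 0.0315), where 0.412% of all genes were lower. With the replicate number as a block the difference was −1.23 with an adjusted p of 0.0629, and the call was also lost without IV ventricle culture 1 or 2 or SVZ culture 2 or 3 (adjusted p up to 0.161), while without IV ventricle culture 3 there were 2 called genes. It was lower in the cerebellar cultures too, at −1.42 ± 0.21 (adjusted p = 0.0161), where 0.533% of all genes were lower, and that call was lost without cerebellar culture 3 or SVZ culture 2 or 3 (adjusted p up to 0.0848). Gbp3 showed the same order of values, with 4.26, 4.50 and 4.64 in SVZ against 2.92 to 3.87 in the hindbrain cultures, but it was not called (adjusted p = 0.0911 against the IV ventricle and 0.0608 against the cerebellar cultures).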

How the data were processed

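Total RNA of 27 mouse samples was measured on 31 Affymetrix arrays. The authors deposited log2 values that were already normalized, by RMA per the submitters' processing notes, for 45101 probe sets (0.417 to 12.924). No RMA version is given in the sources used here. The number of arrays limits the precision. Probe sets with 1 gene symbol in GEO's platform annotation (34958) were kept, 932 with several and 9211 not listed were left out, and each of 18194 genes was read from its probe set with the highest mean, 9012 of them having several. Symbols were checked through Entrez identifiers (34754 matched, 0 changed). Limma 3.58.1 in R 4.3.3 was fitted across all genes with Benjamini-Hochberg adjustment: 19 cultures in 1 model of 5 groups, lines against tissue with tumour as a block, 17 tissues and NSC, and the 9 NSC cultures. The level of hindbrain NSC is the average of both hindbrain group means. The fits were checked on simulated data. Tables and plots used Python 3.11.15, pandas 2.3.3, numpy 2.4.6 and matplotlib 3.10.9. The labels call the 3 NSC cultures of a region biological replicates without naming animals, and their p-values measure the spread between these cultures. Between NSC cultures of the same replicate number, deviations correlated at 0.17 to 0.34 for SVZ with cerebellar and 0.25 to 0.32 for SVZ with IV ventricle. For IV ventricle with cerebellar cultures they correlated at −0.14 to 0.38. These values do not show whether a shared number marks 1 animal, and the main fits did not pair by it. Line and tissue of a tumour share its number. The members and the gene lists were chosen with earlier results of these data known. All 33 members are named. From each other list, counts are given with up to 4 called genes of the smallest p and up to 2 called the other way, and any gene outside this rule is said to be so. Alternatives covered scaling, dim genes, probe sets, the prior, a fold minimum, the arrays fitted, the reference, the marks, blocks and leaving out each sample.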

Additional observations from a re-analysis of the deposited data

Results flagged for a closer look

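In groups of 8 samples, a value was singled out where its gap to the nearest of the others exceeded 0.526 of the whole range of the group. Chance gives about 1 such value in 20 groups. Line 77 and tissue 83 were singled out with their values known, so for them the counts are a description and not a test. No explanation was tested for any of them.

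Line 77 was the high value of the p53 wild-type lines for 20 of the 31 genes, and for 141 of all 18194 genes (0.775%). The transcription factors among them were Irf7 at 4.48 and Irf9 at 6.99, and the sensor Ifih1 stood at 6.08. The Ifit genes stood at 7.09 for Ifit1, 7.37 for Ifit2 and 8.21 for Ifit3. Oasl2 was 7.30, Mx2 was 4.44, Rsad2 was 8.54 and Cmpk2 was 5.38. Bst2 was 6.99, Rtp4 was 9.47, Gbp2 was 4.48 and Gbp3 was 7.08. Usp18 was 7.73, with a gap of 0.91 of the range, the widest of the 20. Parp9 was 6.82, Parp14 was 5.39 and Dtx3l was 7.68. Ifi27 was 10.27 and Cxcl10 was 8.37.

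Tissue 83 was the high value of the tissues for 14 of the 31 genes, and for 106 of all 18194 genes (0.583%). They were Irf7 at 2.86, Irf9 at 5.88, Trim25 at 4.07, Ifit1 at 4.02 and Ifit3 at 5.83. Oas1a was 5.81, Oasl2 was 4.40, Bst2 was 5.13, Rtp4 was 5.93 and Gbp3 was 4.33. Usp18 was 5.52, Parp9 was 5.37, Dtx3l was 5.80 and Ifi27 was 8.46. Tissue 9 was high for Cxcl10 at 6.28, with 4.22 next, and tissue 91 was low for Stat2 at 3.03, with 3.35 next.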

How the results depend on the processing

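Over 29 single results (a called gene in a comparison) and 624 values under other settings, 552 kept direction and call, 71 lost the call and 1 reversed: Cxcl10 in tissue against SVZ rather than hindbrain NSC, at −0.36. The counts of called genes moved as follows. With dim genes left out, which leaves few of the 31 measured, they were 2 for lines against hindbrain NSC (4 before), 1 for heterozygous cultures against hindbrain NSC (2), 0 against lines (1), 3 for lines against tissue (8), 3 for tissue against hindbrain NSC (12), 0 for IV ventricle against SVZ NSC (1) and 0 for cerebellar against SVZ NSC (1). With a 2-fold minimum, lines against tissue gave 3 and tissue against NSC 2. With only the compared arrays fitted, heterozygous cultures gave 5 against NSC and 0 against lines, and cerebellar against SVZ NSC gave 2. With 1 technical array per heterozygous tumour, the count against lines was 0. Within the first and second mark, lines against NSC gave 8 and 5, and heterozygous cultures against lines 5 and 0. Within the 4 tumours that share a mark and the other 4, lines against tissue gave 15 and 2. Settings chosen after seeing the data were lines against tissue without tumours 77 and 83, which gave 14, and lines against NSC without line 77 with all 3 NSC groups as reference, which gave 10; the cause of these shifts was not tested.

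With the replicate number as a block, IV ventricle against SVZ NSC gave 0, cerebellar against SVZ NSC 1, and IV ventricle against cerebellar NSC 0 as without it. Without the tumour block, lines against tissue gave 8 again. With the mark as a block, IV ventricle against SVZ NSC gave 0 and cerebellar against SVZ NSC 2. Leaving out 1 sample at a time gave 3 to 9 for lines against NSC, 1 to 3 for heterozygous cultures against NSC and 1 to 4 against lines, 6 to 15 for lines against tissue, 9 to 15 for tissue against NSC, 0 to 2 for IV ventricle against SVZ NSC and 0 to 1 for cerebellar against SVZ NSC. The highest count came from leaving out line 77 in each comparison of lines with NSC or heterozygous cultures, and from tumour 77 against tissue. Heterozygous cultures rest on 2 tumours, and the mark and the genotype cannot be told apart for them. The same holds for mark and kind of sample where lines or tissue are compared with NSC, since they share no mark. Genes within the background range, 9 of 31 outside line 77 and tissue 83, limit what a small difference can show.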
